A study of Canis lupus familiaris with 13 samples.

Results

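Collagens and the enzymes that modify them were read in 13 untreated primary soft tissue sarcomas of dogs. The genes were taken as a list of 37 symbols, 27 collagen chains and 10 modifying enzymes and chaperones, and all probe sets of the canine Affymetrix array annotated with 1 of these symbols were used. A probe set is a group of short probes that are read together as 1 value, and it need not match only 1 transcript. Of the 37 genes, 31 had at least 1 probe set, with 88 of the 42924 probe sets tested, and these 31 stand among 15115 named genes. COL6A2, COL8A1, COL11A1, COL18A1, PLOD2 and LOXL1 had no probe set under their symbol in the annotation used and were not analysed here.

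The metastatic group held 5 tumours (MET1 to MET5) and the non-metastatic group 8 tumours (NM1 to NM8), whose dogs stayed free of metastasis for 1 year or longer. All were biopsies of primary tumours taken without treatment, and neither breed, age nor histological subtype is stated in the labels. The question was whether the transcripts that build and modify collagen differ by outcome. The labels do not say whether each tumour came from a separate dog, and p-values reflect only how these 13 samples vary.

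Values are log2 intensities, so that 1 unit is a 2-fold change, and differences are metastatic minus non-metastatic. Median intensities lay between 6.71 and 6.94 over the arrays. Poly-A spike-in RNA, which is added before labelling, gave signal on the arrays of all 5 metastatic tumours and of NM5 to NM8 (called class A). It gave none on those of NM1, NM3 and NM4 (class B). On that of NM2 (class C) its 3′ end exceeded its 5′ end by 3.62, against at most 0.98 elsewhere. For the ACTB control probe sets, the gap between the 3′ and the 5′ end was also widest in NM2, at 2.55. It was 1.59 to 1.85 in metastatic tumours and 1.07 to 1.84 in the other non-metastatic tumours. Only class A held both groups, so the differences that matter are also given within these 9 samples. The spike-in probe sets of class B ranged from 2.63 to 7.16 and were used as a guide to the signal of a probe set without target. That they had no target there was inferred from the mean of the 3′ probe sets, which was below 6.

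Collagens are the main structural proteins of connective tissue. Each is built from chains that wind into a triple helix in the endoplasmic reticulum, where prolyl 4-hydroxylases and lysyl hydroxylases modify them and the chaperone HSP47 holds the folded molecule. After secretion, lysyl oxidases cross-link the chains into stiff fibrils or networks. In sarcomas, which are tumours of connective tissue, collagen can be made by the tumour cells themselves as well as by the fibroblasts, pericytes and vessels among them. In a piece of tumour, fewer cells of a type and less RNA per cell cannot be told apart.

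Most collagen genes were read at high levels in both groups, and their levels did not separate metastatic from non-metastatic tumours. Where a gene had several probe sets, the brightest on average over the 13 arrays stood for it. On this basis 28 of the 31 genes had a mean above 7.16, against 54.6% of all genes, and 11 lay above the 95th percentile of all genes. None of the 31 passed the test (limma, adjusted p under 0.05 over all probe sets), where 5.35% of all genes did. At an unadjusted p under 0.05 there were 4, that is 12.9% against 23.9% of all genes. These were COL15A1 and P4HA2 with higher and COL6A1 and COL10A1 with lower means in metastatic tumours. Of the 88 probe sets, 2 passed (2.27%, against 4.9% of all probe sets), both of P4HA2 and both higher, a direction in which 1.56% of all probe sets passed. The ranges of the groups overlapped at all 88 probe sets, while they did not overlap at 2.63% of all probe sets.

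**Figure D1:**
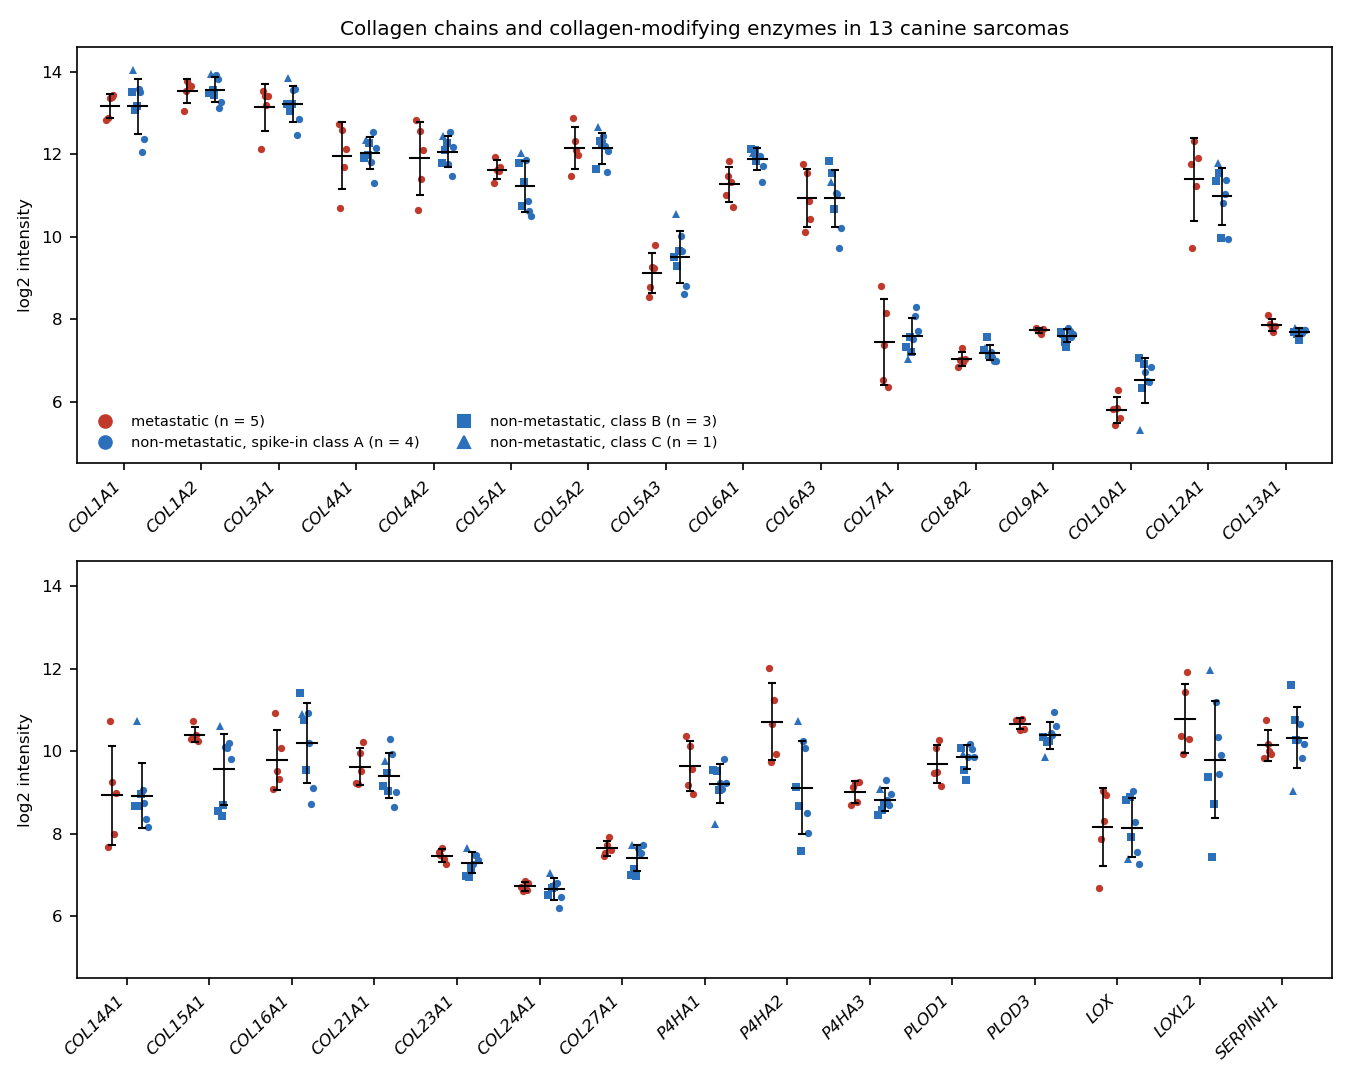
Log2 intensity (vertical axis) of the 31 measured genes in each tumour, with metastatic samples (red) left of non-metastatic samples (blue). Circles are samples of spike-in class A, squares class B and the triangle class C, and lines are group means with SD. The groups overlap for every gene, and P4HA2 and LOXL2 spread more widely than the chains of collagen I.

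The direction was mixed as well. Positive differences were found for 18 genes and negative ones for 13, so that 58.1% were positive, against 56.1% of all genes. The median difference was 0.01 for the 31 genes and 0.05 for all genes, and 26 of the 31 differed by less than 0.5 in size. The 95% interval of the difference lay between -1 and 1 for 21 genes (67.7%, against 78.7% of all genes). For these a 2-fold difference between the groups is outside the interval at the brightest probe set only. They include COL8A2 and COL24A1, with means not above 7.16, where a narrow interval says little about the transcript. At dimmer probe sets the interval was -2.34 to -0.11 for P4HA3 and, at 1 of them, -1.36 to 0.63 for COL1A2. Within class A the median difference was 0.06, against 0.03 for all genes.

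**Figure D2:**
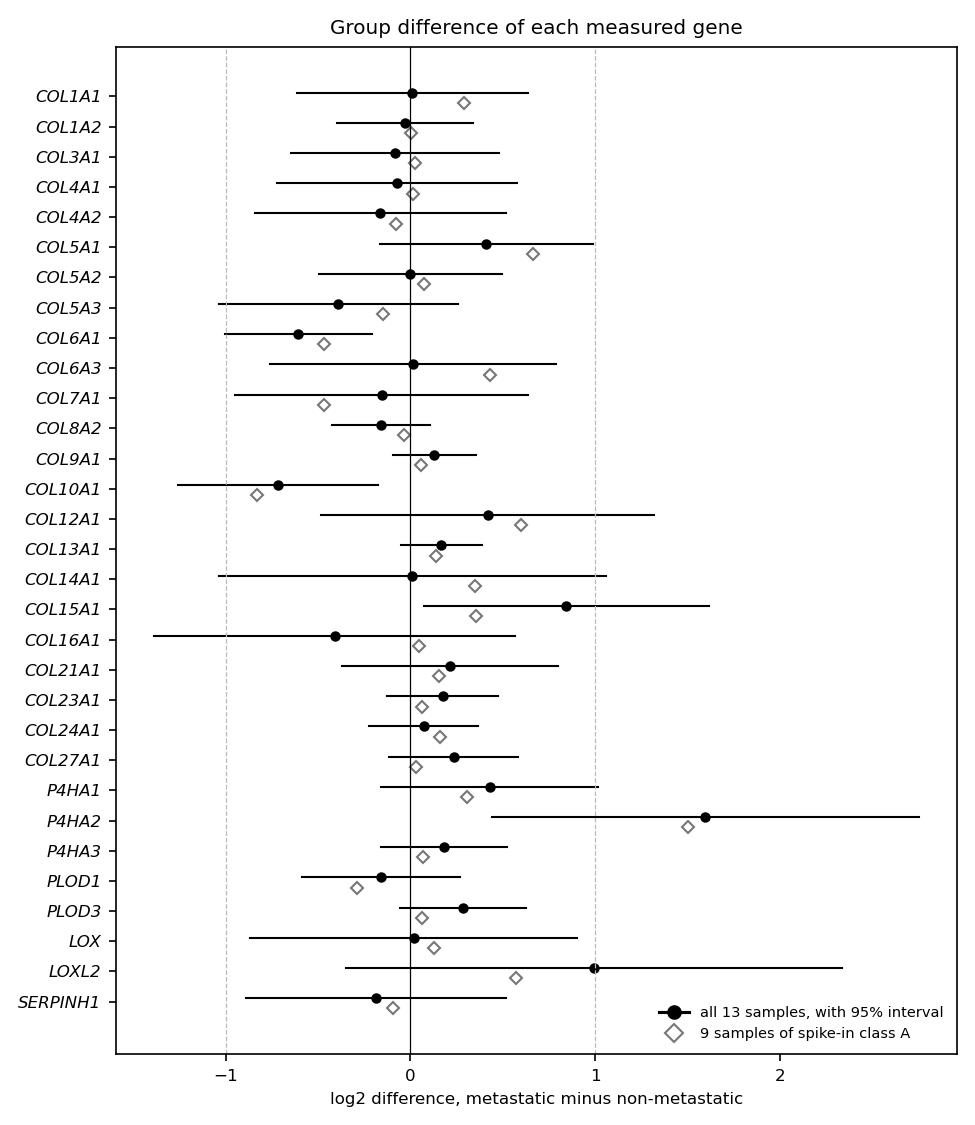
Log2 difference of each measured gene between metastatic and non-metastatic tumours (horizontal axis, positive where metastatic is higher), with filled circles and 95% intervals for all 13 samples and open diamonds for the 9 samples of class A. P4HA2 has the largest difference at 1.60, and the intervals of COL6A1, COL10A1, COL15A1 and P4HA2 do not include 0, without adjustment for the number of tests.

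The chains of collagen I, the main protein of fibrils in skin, tendon and bone, did not differ beyond the spread between tumours. COL1A1 gave 12.83, 12.87, 13.36, 13.38 and 13.43 in MET1 to MET5, and 12.05, 13.34 and 14.04 as the lowest, median and highest values in non-metastatic tumours. The non-metastatic tumours thus reached both below and above all metastatic ones. The difference was 0.01 ± 0.29 (SE, limma adjusted p = 0.986), with a 95% interval from -0.62 to 0.64. COL1A2, the second chain, gave 13.05, 13.54, 13.77, 13.67 and 13.66 in MET1 to MET5, against 13.12, 13.52 and 13.95 as the lowest, median and highest in non-metastatic tumours. It differed by -0.03 ± 0.17 (SE, adjusted p = 0.924), with an interval from -0.40 to 0.34. These values are close to the top of the scale: COL1A2 lay between 0 and 0.85 below the highest value of any probe set on its array. The dimmer probe sets of COL1A2 had SDs over 13 samples of 0.62 to 0.89, against 0.29 at the brightest. They differed by 0.09, 0.31 and -0.37 without passing, and the widest interval ran from -1.36 to 0.63. Whether differences are compressed near the top of the scale was not tested.

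COL3A1, the chain of collagen III, which forms fine fibrils together with collagen I, averaged 13.14 ± 0.58 in the 5 metastatic tumours and 13.22 ± 0.45 in the 8 non-metastatic ones (mean ± SD). MET1 had 12.13, below every other tumour, while MET2 to MET5 had 13.54, 13.41, 13.20 and 13.41. The lowest, median and highest non-metastatic values were 12.46, 13.21 and 13.84. The difference was -0.08 ± 0.26 (SE, adjusted p = 0.866), and all 5 probe sets of COL3A1 had small negative differences, from -0.24 to -0.08.

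Collagen V sits inside collagen I fibrils and limits their width. Its chain COL5A1 gave 11.29, 11.94, 11.62, 11.59 and 11.70 in MET1 to MET5 and 10.51, 11.10 and 12.04 as the lowest, median and highest in non-metastatic tumours. The metastatic values lay within the non-metastatic range, in its upper part. The difference was 0.41 ± 0.27 (SE, adjusted p = 0.355), and 0.67 ± 0.27 within class A (adjusted p = 0.21). Over all samples all 4 probe sets were positive. Within class A the dimmer ones differed by 0.59, -0.001 and 0.16, without passing. COL5A2, its partner chain, averaged 12.15 ± 0.52 in the 5 metastatic tumours and 12.15 ± 0.38 in the 8 non-metastatic ones (mean ± SD), a difference of 0.00 ± 0.23 (SE). COL5A3, another chain of collagen V, differed by -0.39 ± 0.30 (SE, adjusted p = 0.438). The minor fibrillar chains COL24A1 and COL27A1 differed by 0.07 ± 0.14 and 0.23 ± 0.16 (SE), and the mean of COL24A1, 6.72 in metastatic and 6.65 in non-metastatic tumours, lay below 7.16. The 5 probe sets of COL27A1 differed by -0.125 to 0.58 over all samples, without passing. Within class A its brightest probe set differed by 0.03.

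Collagen IV forms the network of basement membranes, also around vessels. COL4A1 gave 12.73, 10.70, 12.58, 11.69 and 12.13 in MET1 to MET5, against 11.30, 12.07 and 12.55 as the lowest, median and highest in non-metastatic tumours. COL4A2 gave 12.82, 10.65, 12.56, 11.39 and 12.09 in the same metastatic tumours, against 11.46, 12.14 and 12.54. MET1 had the highest and MET2 the lowest value of all 13 tumours for both chains, and the non-metastatic tumours lay between them. The SD was 0.82 in metastatic and 0.39 in non-metastatic tumours for COL4A1. The means differed by -0.07 ± 0.30 (SE, adjusted p = 0.897) for COL4A1 and by -0.16 ± 0.32 (adjusted p = 0.772) for COL4A2.

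Of the other network-forming chains, COL8A2, found in the membrane under endothelia such as that of the cornea, had means of 7.03 in metastatic and 7.19 in non-metastatic tumours. It differed by -0.16 ± 0.12 (SE), and its mean over all 13 tumours was not above 7.16. COL10A1, the chain of collagen X that is best known from hypertrophic cartilage, gave 5.83, 5.44, 5.84, 6.28 and 5.60 in MET1 to MET5. In non-metastatic tumours its lowest, median and highest values were 5.30, 6.61 and 7.06. The difference was -0.72 ± 0.25 (SE, limma adjusted p = 0.114) over all samples, and NM2 held the lowest value of all.

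Within class A the metastatic values of COL10A1, 5.44 to 6.28, did not overlap with the non-metastatic ones, 6.48 to 6.84, and COL10A1 fell by 0.83 ± 0.17 (SE, limma adjusted p = 0.0389). It was the only 1 of the 31 genes to pass there (3.23%, against 2.82% of all genes). At the brightest probe set the groups did not overlap within class A for 2 of the 31 genes, COL10A1 and COL15A1. They did not overlap at 9.33% of all probe sets, a share over probe sets and not over genes. At the other probe sets of COL10A1 and COL15A1 the groups overlapped within class A. All 13 values of COL10A1 were below 7.16, so the transcript was not told apart from the signal of probe sets without target, and the size of the difference is uncertain. Its second probe set, at 2.58 in metastatic and 2.41 in non-metastatic tumours on average, differed by 0.18 in the opposite direction.

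Collagen VI makes the beaded filaments around cells, from chains of COL6A1, COL6A2 and COL6A3. COL6A1 gave 11.01, 11.46, 11.83, 11.33 and 10.73 in MET1 to MET5, against 11.32, 11.96 and 12.13 as the lowest, median and highest in non-metastatic tumours. MET1 and MET5 lay below every non-metastatic tumour and the other metastatic ones within their range. The difference was -0.61 ± 0.19 (SE, limma adjusted p = 0.0741), and its second probe set differed by -0.55 (adjusted p = 0.175). Within class A it was -0.47 ± 0.23 (SE, adjusted p = 0.294). COL6A1 thus did not pass over all samples or within class A. Among the fits without 1 sample, it passed without MET3 (-0.75, adjusted p = 0.0395) and without NM7 (-0.69, adjusted p = 0.041) only. COL6A3 gave 11.75, 10.11, 11.54, 10.87 and 10.42 in MET1 to MET5, against 9.72, 11.05 and 11.83, a difference of 0.01 ± 0.36 (SE, adjusted p = 0.986). Its dimmer probe sets, with means of 7.49 and 7.18 over all 13 tumours, differed by 0.55 and 0.18. Within class A the differences were 0.43 at the brightest probe set and 0.72 and 0.33 at the dimmer ones, without passing.

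Collagen VII anchors epithelia to the tissue below. COL7A1 gave 8.81, 6.53, 7.36, 8.14 and 6.35 in metastatic tumours, against 7.03, 7.54 and 8.30 as the lowest, median and highest in non-metastatic tumours. MET1 lay above the non-metastatic range, MET2 and MET5 below it, and MET3 and MET4 within it. The values of MET2, MET5 and NM2 were below 7.16. The difference of -0.16 ± 0.37 (SE) did not pass. At the dimmer probe set of COL7A1, with a mean of 6.67 over all tumours, the difference was 0.36, without passing. There the metastatic values, 6.54 to 7.26, lay within the non-metastatic range of 5.87 to 7.93.

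The fibril-associated collagens sit on the surface of fibrils. COL12A1, which is abundant in tendon and in stroma under load, gave 11.76, 9.73, 12.33, 11.24 and 11.91 in MET1 to MET5, against 9.95, 11.19 and 11.78, a difference of 0.42 ± 0.42 (SE, adjusted p = 0.556). MET2 was again the lowest of the 13, close to the lowest non-metastatic tumour. Fits without 1 sample gave differences from 0.18 to 0.83, the highest without MET2 (adjusted p = 0.208). COL14A1 gave 7.68, 10.73, 9.25, 7.99 and 8.99 in MET1 to MET5, against 8.16, 8.71 and 10.73 as the lowest, median and highest in non-metastatic tumours. MET1 and MET4 lay below all non-metastatic tumours, and MET2 was level with NM2 at the top. At the probe set of highest level the difference was 0.01 ± 0.49 (SE, adjusted p = 0.991). The 8 probe sets differed by -0.49 to 0.58, and 0 passed. Its probe set with the third highest mean gave 6.27, 11.54, 9.48, 5.71 and 8.91 in MET1 to MET5, against 7.40, 8.83 and 10.85 as the lowest, median and highest in non-metastatic tumours. COL16A1, found beside fibroblasts and smooth muscle, gave 9.08, 10.92, 9.51, 9.33 and 10.07 in MET1 to MET5, against 8.71, 10.48 and 11.40 as the lowest, median and highest in non-metastatic tumours. All metastatic values lay inside the non-metastatic range, and the difference was -0.41 ± 0.46 (SE, adjusted p = 0.595), against 0.05 within class A. COL21A1 and COL9A1 differed by 0.21 and 0.13 without passing. COL9A1, a cartilage chain, lay between 7.33 and 7.78 in all 13 tumours.

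The transmembrane collagens COL13A1 and COL23A1 differed by 0.17 and 0.18 (SE 0.10 and 0.14) and did not pass. COL15A1, a collagen of basement membranes that binds them to the fibrils beside them, gave 10.30, 10.72, 10.33, 10.40 and 10.25 in MET1 to MET5, against 8.42, 9.95 and 10.60 in non-metastatic tumours. The low values were those of class B: COL15A1 averaged 10.05 in the non-metastatic tumours of class A and 8.55 in those of class B, without overlap. The difference was 0.85 ± 0.36 (SE, limma adjusted p = 0.177) over all samples, and 0.35 ± 0.13 (SE, adjusted p = 0.167) within class A. Its other probe sets differed by 1.03, 0.24 and 0.01 over all samples and by 0.81, 0.03 and -0.17 within class A, without passing. The split between classes A and B was found for 5 of the 31 genes (16.1%, against 36.0% of all genes), the others being COL23A1, COL27A1, PLOD3 and LOXL2. Since class B held no metastatic tumour, its part in the differences over all samples cannot be told apart from the group, other than by the values within class A.

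Prolyl 4-hydroxylase makes the hydroxyproline that keeps the collagen helix stable at body temperature, and its alpha subunits carry the active site. P4HA2 had the largest difference of the 31 genes. At its probe set of highest level it gave 12.01, 9.74, 10.65, 11.24 and 9.93 in MET1 to MET5, against 7.58, 8.90 and 10.72 as the lowest, median and highest in non-metastatic tumours. MET1 and MET4 lay above every non-metastatic tumour, while MET2, MET3 and MET5 lay in the upper part of their range, with NM2, NM5 and NM6 among them. The means were 10.71 ± 0.94 for the 5 metastatic and 9.12 ± 1.13 for the 8 non-metastatic tumours (± SD). The difference of 1.60 ± 0.54 (SE, limma adjusted p = 0.10) did not pass at this probe set, with a 95% interval from 0.44 to 2.75.

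Of the 6 probe sets of P4HA2, all were positive and 2 passed. At the probe set with the fifth highest mean the values were 11.19, 8.44, 9.86, 10.39 and 8.90 in MET1 to MET5, against 5.93, 7.69 and 9.10 as the lowest, median and highest in non-metastatic tumours, and P4HA2 was 2.07 ± 0.53 (SE) higher (limma adjusted p = 0.0415). At the probe set with the fourth highest mean it was 1.58 ± 0.43 (SE) higher, with an adjusted p of 0.04998, just under the threshold. Of the other 4 probe sets, 3 differed by 1.30 to 1.63 and 1 at the level of probe sets without target by 0.32. Within class A the differences of the 2 passing probe sets were 1.52 ± 0.62 and 1.34 ± 0.54 (SE), with adjusted p of 0.212 and 0.21, so neither call was kept. With the gap between the ACTB ends as a covariate they were 1.97 and 1.49 (adjusted p = 0.0569 and 0.0667).

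The calls on P4HA2 depended on single samples. Both were lost without MET1, MET3, MET4, MET5, NM1, NM3, NM4, NM7 or NM8, with differences at the fifth probe set from 1.71 without MET1 to 2.28 without MET5. Without NM2 the probe set of highest level also passed (1.83, adjusted p = 0.0389), and 5 of the 6 probe sets did. The difference of P4HA2 was positive in all 24 alternatives, from 1.20 to 1.84. These used the probe set of highest level, apart from the alternative with the mean of all probe sets per gene.

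**Figure D3:**
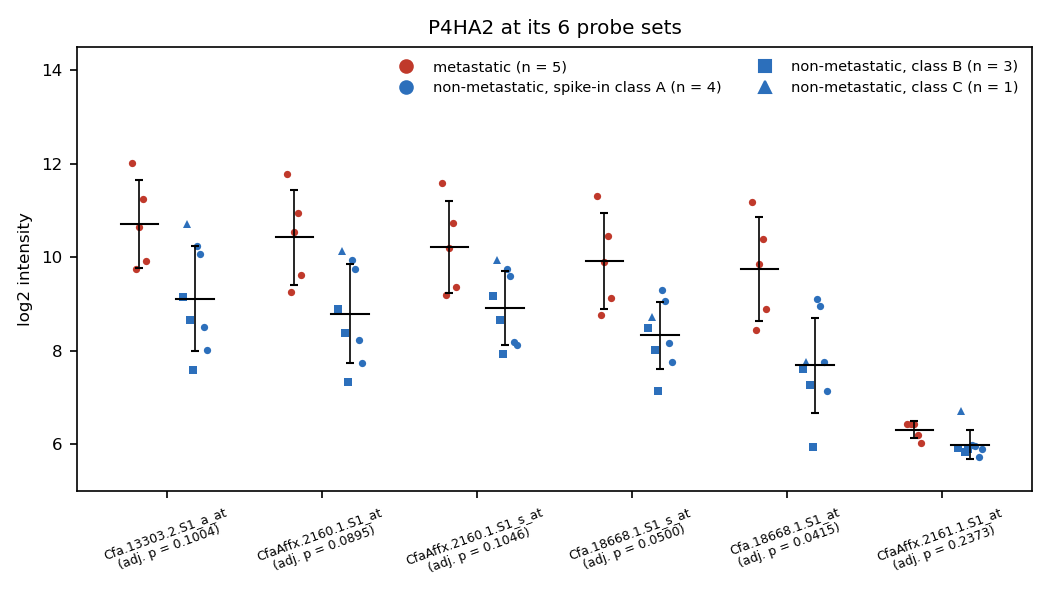
Log2 intensity of P4HA2 (vertical axis) at each of its 6 probe sets, ordered by level, with metastatic samples (red) left of non-metastatic samples (blue), and symbols, means and SD as in the plot of all genes. The limma adjusted p is given under each probe set, and NM5 and NM6 lie within the metastatic range at each of the 5 brighter probe sets.

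P4HA1, the more widely expressed alpha subunit, gave 10.37, 9.18, 10.13, 9.56 and 8.96 in MET1 to MET5, against 8.24, 9.22 and 9.81 as the lowest, median and highest in non-metastatic tumours. The difference was 0.43 ± 0.28 (SE, adjusted p = 0.344), and its 4 probe sets were all positive, at 0.15 to 0.75. P4HA3 differed by 0.18 ± 0.16 (SE) at its brighter probe set and by -1.22 ± 0.52 (SE, adjusted p = 0.177) at the other, where MET1 was lowest at 4.04.

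Lysyl hydroxylases prepare lysines of the collagen chain for cross-links and for the addition of sugars. PLOD1 gave 9.46, 10.08, 9.50, 10.26 and 9.16 in MET1 to MET5, against 9.31, 9.90 and 10.17, a difference of -0.16 ± 0.20 (SE, adjusted p = 0.645). PLOD3 averaged 10.66 ± 0.13 in the 5 metastatic tumours and 10.38 ± 0.32 in the 8 non-metastatic ones (mean ± SD), and its difference of 0.29 ± 0.16 (SE, adjusted p = 0.283) was 0.06 within class A. SERPINH1, which encodes HSP47, gave 9.83, 10.76, 10.16, 10.01 and 9.92 in MET1 to MET5, against 9.03, 10.27 and 11.60, and differed by -0.19 ± 0.33 (SE, adjusted p = 0.746).

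Lysyl oxidases act outside the cell. LOX gave 6.68, 7.87, 9.02, 8.30 and 8.93 in MET1 to MET5, against 7.26, 8.10 and 9.03 as the lowest, median and highest in non-metastatic tumours, with MET1 below all others. The difference was 0.02 ± 0.41 (SE, adjusted p = 0.982). LOXL2, a family member that acts on collagen IV, gave 10.36, 9.93, 11.43, 11.93 and 10.30 in MET1 to MET5, against 7.43, 9.68 and 11.96. NM3 and NM2 were the lowest and the highest of the 13 tumours. The difference of 1.00 ± 0.63 (SE, adjusted p = 0.336) had an interval from -0.35 to 2.34, so that neither no change nor a 2-fold rise is outside it. It was 0.57 ± 0.47 (SE, adjusted p = 0.537) within class A, and LOXL2 averaged 10.22 in the non-metastatic tumours of class A and 8.51 in those of class B.

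Chains that share a molecule or fibril, and enzymes beside their substrate, were compared over the tumours in 8 pairs, with p adjusted over the 8. COL4A1 and COL4A2, whose genes lie beside each other and share a promoter in mammals, moved together most closely, with Pearson r = 0.981 and Spearman rho = 0.989 over 13 tumours (permutation p = 1e-05 for both, the smallest the resamples can give, adjusted p = 8e-05). Within class A r was 0.984 and rho 0.983 (exact permutation adjusted p = 0.00011 and 0.000397, n = 9). Without MET2 and NM7, the samples farthest from the median of COL4A1, r was 0.975.

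COL1A1 and COL1A2 had r = 0.848 and rho = 0.852 (permutation p = 0.00019 and 0.00033, adjusted p = 0.00076 and 0.00132), and r = 0.792 without NM7 and NM8. Within class A r was 0.875 and rho 0.883 (exact permutation adjusted p = 0.0117 and 0.0123). COL1A1 and COL3A1 had r = 0.761 and rho = 0.81 (permutation p = 0.00304 and 0.00125, adjusted p = 0.00811 and 0.00333), and r = 0.683 without the same pair of samples. Within class A their r of 0.718 did not pass (exact permutation adjusted p = 0.0555), while rho of 0.803 did (adjusted p = 0.0325). All values of a tumour come from 1 array and 1 RNA extract, so both genes of a pair share its RNA quality.

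COL6A1 and COL6A3 had r = 0.411 and rho = 0.541 over all tumours (permutation p = 0.163 and 0.0582, adjusted p = 0.218 and 0.108). Over all tumours without MET1 and MET5, the samples farthest from the median of COL6A1, r was 0.79. Within class A r was 0.159 (exact permutation adjusted p = 0.679), and -0.009 without MET5 and NM6, left out by the same rule. Over the 8 non-metastatic tumours r was 0.963 and rho 0.976 (exact permutation p = 4.96e-05 and 0.000397, adjusted p = 0.000198 and 0.00132). In the same 8 tumours r was 0.973 for COL4A1 with COL4A2, 0.957 for COL1A1 with COL3A1 and 0.908 for COL1A1 with COL1A2, so a high value there was not particular to collagen VI. The metastatic tumours are too few for a value of their own, and whether the relation differs between the groups was not tested. The other 4 pairs did not pass over all tumours. They were COL5A1 with COL5A2 (r = 0.414, rho = 0.527), P4HA1 with P4HA2 (r = 0.238, rho = 0.239), and COL1A1 with SERPINH1 (r = -0.035, rho = 0.063) and with LOX (r = 0.455, rho = 0.489). Their permutation adjusted p ran from 0.218 to 0.908 for r and from 0.108 to 0.836 for rho. Within class A, COL1A1 with LOX had r = 0.745 and rho = 0.783 (exact permutation adjusted p = 0.0555 and 0.0344).

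**Figure D4:**
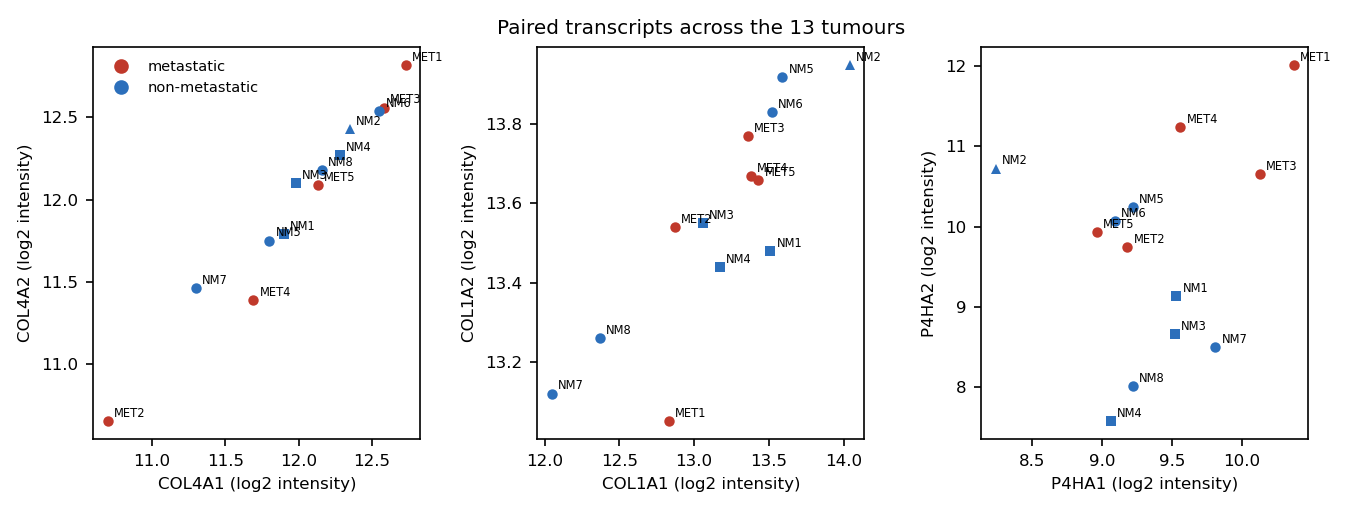
Log2 intensity of COL4A2 against COL4A1, COL1A2 against COL1A1 and P4HA2 against P4HA1, with 1 labelled point per tumour, metastatic in red and non-metastatic in blue, and circles, squares and the triangle for spike-in classes A, B and C. The points of collagen IV follow a line (r = 0.981) with MET1 and MET2 at its ends, and those of the P4HA subunits do not (r = 0.238).

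The extreme values were unevenly spread over the tumours. MET1 held the highest value of the 13 for 7 genes (COL4A1, COL4A2, COL7A1, COL9A1, COL13A1, P4HA1 and P4HA2, level with NM5 for COL9A1) and the lowest for 7 (COL1A2, COL3A1, COL5A2, COL5A3, COL8A2, COL14A1 and LOX). NM2 held the highest value for 9 genes, among them COL1A1, COL1A2, COL3A1, COL5A1 and COL5A3, with COL14A1 level with MET2 and COL23A1 level with MET3, and the lowest for COL10A1, P4HA1, PLOD3 and SERPINH1. NM6 held none of either kind. The mean of the 6 chains of collagens I, III and V was 12.85 in NM2 and 11.40 in NM7, the extremes, and the metastatic tumours lay at 11.55 (MET1) and from 12.20 to 12.33 (the others). The SD over 13 samples had a median of 0.54 for the 31 genes and 0.34 for all genes, and 13 of the 31 (41.9%, against 35.7% of all genes) had the larger SD in metastatic tumours.

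Genes around collagen that are not in the list were read from further lists. Of 13 other measured collagen chains, 0 passed, with a median difference of 0.26, and 5 had means above 7.16. Of 15 genes of collagen folding, modification and export, 12 of procollagen processing and cross-linking, and 9 collagen receptors, 0 passed either, with medians of -0.01, 0.06 and 0.05. Of the genes of collagen breakdown, 2 of 8 were lower and 0 higher, with a median of -0.73 (-0.59 within class A). Over all genes, 3.7% were called lower and 5.35% in either direction. FAP, a membrane protease of activated fibroblasts that cleaves denatured collagen, averaged 10.29 ± 1.10 in the 5 metastatic tumours and 11.87 ± 0.56 in the 8 non-metastatic ones (mean ± SD) and fell by 1.58 ± 0.41 (SE, limma adjusted p = 0.0421). MMP2, a gelatinase, fell by 1.39 ± 0.32 (SE, adjusted p = 0.0265). Within class A they differed by -1.50 and -1.23 and did not pass (adjusted p = 0.174 and 0.155).

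The labelled tissue was checked by cell type markers. Of 9 markers of fibroblasts and stroma, all had means above 7.16, and of 4 epithelial markers, 0 did. KRT8, 1 of these, was lower in metastatic tumours, at a mean of 1.55 against 4.88 in non-metastatic tumours (adjusted p = 0.0468), and did not pass within class A (adjusted p = 0.0719). Its values in NM7 and NM8 were 7.46 and 8.84, above 7.16, and the other 6 non-metastatic tumours had 3.08 to 5.23. The mean level of the stroma markers ranged from 10.73 to 11.68 in metastatic and from 11.15 to 11.79 in non-metastatic tumours, and 3 of the 9 (DCN, THY1 and FAP) were lower in metastatic tumours while 0 were higher, against 3.7% of all genes called lower. The largest difference among the 9 was that of LUM, at 1.82 ± 1.06 (SE, adjusted p = 0.304), in the other direction, and PDGFRB differed by 0.64 (adjusted p = 0.367). DCN, a proteoglycan that binds collagen fibrils, averaged 12.37 ± 0.58 in the 5 metastatic tumours and 13.66 ± 0.11 in the 8 non-metastatic ones (mean ± SD), with a limma adjusted p of 0.00429, and its adjusted p within class A was 0.0346. It was the only 1 of the 9 to pass there, and THY1 had an adjusted p of 0.0425 over all samples and 0.133 within class A. Endothelial markers ranged from 7.58 to 8.59 and from 7.17 to 9.25 in the same groups, pericyte and smooth muscle markers from 8.34 to 9.73 and from 8.09 to 9.85, and 0 of 7 and 0 of 6 passed. Of 6 cartilage markers 0 passed and 1 had a mean above 7.16, and all 6 differences were positive, as were those of 6 skeletal muscle markers (0 passed). This was not particular to them: 5 of 5 adipocyte and 5 of 6 T cell markers were positive, against 56.1% of all genes. Of 6 macrophage markers, 5 were negative. The part of cell type in the values of collagen genes was not tested.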

How the data were processed

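Per the labels' protocols, total RNA came from a column kit and was biotin-labelled with a 1-cycle 3′ transcription kit for Affymetrix arrays. The authors deposited 1 table of 43035 probe sets, read here as log2 intensities from its range. Software, background correction and normalization: not given in the sources used here. No detection calls were used, and the number of arrays limits the precision. Values were used as deposited, after leaving out 111 Affymetrix controls. Of the probe sets tested, 29254 had 1 gene symbol in the platform annotation, 439 several (not named) and 13231 none. The gene identifiers of 30 of the 31 genes were found in RefSeq's table of UU_Cfam_GSD_1.0, with the same symbols.

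Groups came from the sample titles. All 42924 probe sets entered 1 limma fit (version 3.58.1 in R 4.3.3, lmFit and eBayes) on the group alone, with two-sided p-values and Benjamini-Hochberg adjustment over all of them. Spike-in classes were set from the mean of the 3′ poly-A probe sets (signal above 6) and a 3′ minus 5′ value above 2. Correlations used two-sided permutation tests, exact for fewer than 10 samples and with 100000 resamples otherwise (Python 3.11.15, numpy 2.4.6). The fit was tested on simulated data. The genes and lists were chosen with earlier results of these data known. All 31 genes are named, with the values of each metastatic tumour and the lowest, median and highest non-metastatic values for those with a passing probe set, the 8 largest differences and a fixed set of main chains and enzymes. Alternatives covered samples, covariates, normalization, filter, moderation, array weights, choice of probe set and threshold. No sequences were used here.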

Additional observations from a re-analysis of the deposited data

Results flagged for a closer look

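Each of the 31 genes was examined in both groups for a sample far from the others of its group (Dixon's ratio of gap to range), which makes 62 groups, and chance flags about 1 in 20. A sample stood apart in 3 of them, which is about the number that chance gives. COL3A1 was 12.13 in MET1, with the next metastatic tumour at 13.20. COL10A1 was 5.30 in NM2, with the next non-metastatic tumour at 6.34. COL14A1 was 10.73 in NM2, with the next at 9.06. NM2 is the sample whose spike-in and ACTB controls were highest at the 3′ relative to the 5′ end, and the part of RNA quality in its values was not tested.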

How the results depend on the processing

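Over 23 or 24 alternatives for each gene at the threshold of 0.05, 28 of the 31 genes stayed on the same side of the threshold in all, while 15 of the 31 changed sign in some alternative without being called (COL14A1 in 13, COL5A2 in 12). COL6A1, COL10A1 and P4HA2 passed in 2, 4 and 1 of these. COL6A1 also passed at the threshold of 0.10, which is not counted among them. Among fits without 1 sample, 856 to 4478 probe sets of the array passed, against 2104 in all. It was 856 without MET1, 1393 without MET3, 982 without MET5, 1375 without NM1, 1100 without NM3, 1105 without NM4, 1218 without NM8 and 4478 without NM2. The count of genes of the list was 0 to 2 and the count of their probe sets 0 to 7, both highest without NM2. The 2 genes without NM2 were COL10A1 (-0.89) and P4HA2 (1.83), and 1 gene, COL6A1, passed without MET3 or NM7. The median difference was -0.06 to 0.13. Within class A 1192 probe sets of the array passed, with 1 gene and 1 probe set of the list (COL10A1). With the spike-in class as a block the list had 1 and 1 as well. Without class B the array had 207 and the list 0 probe sets. With the replicate number as a block over replicates 1 to 5, 733 and 0 passed; same-numbered samples correlated by -0.01 to 0.08, 1 of 5 best with its own number, so the numbers were not taken as pairs. The ACTB covariate left 0 probe sets of the list, median centring 1, array weights 4 (1 gene, 4011 on the array) and a threshold of 0.10 likewise 4 (1 gene, 4352 on the array). The causes were not tested. Values near the top of the scale and at the level of probe sets without target limit the sizes of change.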
